A study of Mus musculus with 6 samples.

Results

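The genes described here are a set of neuronal and synaptic transcripts read in cells that had been sorted as astrocytes from the mouse cerebral cortex. The set was given as 38 gene symbols, and its members were found by symbol in the platform annotation of the deposited values. Each gene was read at its brightest probe set, by the mean of all 6 arrays, among those annotated with exactly 1 symbol. Of the 38 genes, 37 were measured in this way, out of 18193 genes in all, and Grin1, an obligatory subunit of NMDA receptors, had no such probe set in the annotation used. The members were sorted by role into 9 genes of neuronal identity and cytoskeleton, 8 of vesicle release, 10 measured genes of excitatory transmission, 7 of inhibitory neurons and 3 ion channel genes.

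The reactive group comprised 3 pools of green fluorescent cells from TgN(hGFAP-EGFP) GFEA mice, whose fluorescent protein is under the human GFAP promoter. They were collected 5 days after a stab wound to the grey matter of the somatosensory cortex, with a length of 1 to 1.2 mm and a depth of 0.7 mm. The non-reactive group comprised 3 pools from the matching region of uninjured Tg(Aldh1l1-eGFP)OFC789Gsat mice. All mice were FVB/N animals of 2 to 3 months whose sex was not determined, and each pool held the sorted cells of about 15 animals. Injury and reporter line coincided throughout, so an effect of the wound and an effect of the transgene that defined the sort cannot be told apart. The protocol text shared by all samples also describes BrdU given in drinking water or by injection, without saying whether the mice of these arrays received it.

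Neurons release transmitter when a calcium signal drives the fusion of synaptic vesicles, through SNARE proteins such as those encoded by Snap25 and Vamp2 and the calcium sensor encoded by Syt1. Excitatory cortical neurons load vesicles with glutamate and signal through AMPA and NMDA receptors held in a postsynaptic scaffold. Inhibitory neurons make GABA and fall into classes marked by parvalbumin, somatostatin or vasoactive intestinal peptide. Astrocytes enwrap synapses and are not the main source of most of these transcripts, although some members, Gria2 among them, are also transcribed by glial cells.

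The deposited values were log2 expression values made by RMA, a method of background correction, normalisation between arrays and summary by probe set. No detection call came with them, so 4.74, the median of all probe set means, served as a mark for dim probe sets. Reactive arrays correlated with each other at 0.901 to 0.921 and non-reactive arrays at 0.95 to 0.963. Arrays of different groups correlated at 0.889 to 0.93, a range that holds that of the reactive arrays. All 10 astrocyte markers lay above 4.74 on all 6 arrays, and 1 of them, Gfap, rose and 3 (Sox9, Slc1a3 and Gja1) fell (limma). As a list they averaged 9.92 to 10.27 on the reactive arrays and 10.77 to 11.13 on the non-reactive arrays. Of the 10, 9 had differences below 0, Aldh1l1 (-0.57) among them, and the median difference was -1.24. The markers of microglia and macrophages averaged 8.81 to 9.18 on the reactive arrays and 6.88 to 7.26 on the non-reactive arrays, and 5 of 12 rose. Those of oligodendrocytes averaged 9.79 to 10.37 on the reactive and 8.22 to 9.16 on the non-reactive arrays, and 1 of 9 measured rose. None of the markers of oligodendrocyte precursors, endothelial cells and pericytes, or neural progenitors passed. The 3′ minus 5′ difference of control probe sets, a measure of how far labelling reached along a transcript, averaged 4.17 on the reactive and 5.19 on the non-reactive arrays for Gapdh. It averaged 3.38 on the reactive and 5.05 on the non-reactive arrays for Actb, and 1.44 on the reactive and 3.46 on the non-reactive arrays for Pcx. The differences of Tfrc (0.55 on the reactive and 0.43 on the non-reactive arrays) and 18S rRNA (0.83 on the reactive and -1.15 on the non-reactive arrays) did not go the same way. The part of these features in the differences described here was not tested.

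Transcripts of neurons were read on every array of both groups. Of the 37 measured members, 34 lay above 4.74 on all 6 arrays, against 9693 of all 18193 genes. Reading each gene at its brightest probe set favours values above the median of all probe set means. The exceptions among the members were Grin2a, Slc17a7 and Gad1. Grin2a, an NMDA receptor subunit, lay below 4.74 on all 6 arrays. Slc17a7, the vesicular glutamate transporter VGLUT1, and Gad1, a GABA-synthesising enzyme, lay on either side of it. Camk2a encodes the alpha subunit of the calcium/calmodulin-dependent kinase of excitatory synapses. It measured 12.80, 12.86 and 12.23 on the reactive arrays and 13.14, 13.17 and 12.91 on the non-reactive arrays. This was the brightest of its 6 probe sets, the dimmest of which had a mean of 4.11. Rbfox3, which encodes the neuronal nuclear protein NeuN, measured 12.01, 11.94 and 11.41 on the reactive and 12.52, 12.05 and 11.70 on the non-reactive arrays. The other probe sets of Rbfox3 had means of 9.09 and 7.93. In bulk samples such as these, fewer cells of a type and less RNA per cell cannot be told apart, and which cells of a pool carried the transcripts cannot be read from the arrays.

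**Figure D1:**
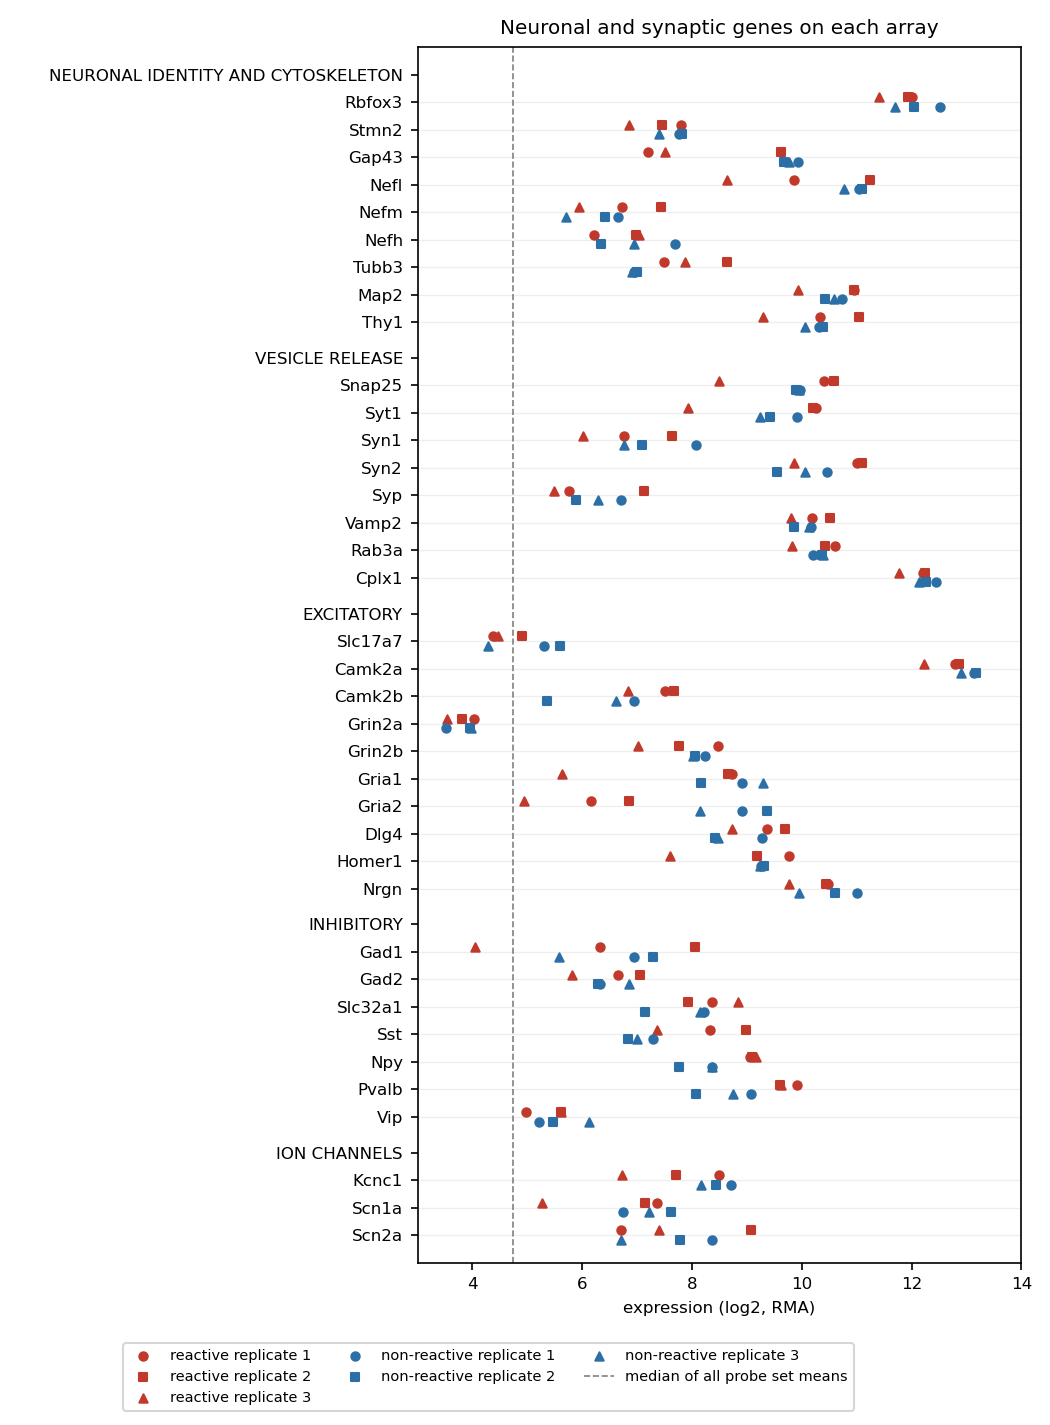
Expression of the 37 measured members (log2, RMA, horizontal axis) on each array, with the 3 reactive arrays above the 3 non-reactive arrays in each row and the symbol giving the replicate. The dashed line marks 4.74, the median of all probe set means; the values of Grin2a lie left of it on all 6 arrays, and red triangles, for reactive replicate 3, are the lowest red symbol in 28 of 37 rows.

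The first comparison asked whether these transcripts differed between reactive and non-reactive cells. No member passed the threshold of 0.05 after adjustment over all 45037 probe sets (limma, Benjamini-Hochberg), neither among those higher in the reactive arrays nor among those lower. Over all genes, 0.951% passed in either direction, 0.39% higher and 0.561% lower. At an unadjusted p under 0.05 there were 6 members, 4 higher and 2 lower, which is 16.2% of them against 15.0% of all genes. The groups did not overlap for 7 members, 4 higher and 3 lower, or 18.9%, against 13.5% of all genes with higher and 8.2% with lower reactive arrays, 21.7% together. Both shares lay near those of all genes. Of the members, 29 of 37 differed by less than 2-fold, or 78.4%, against 87.7% of all genes. The median log2 difference, reactive minus non-reactive, was -0.18 over the members and 0.12 over all genes. Above 0 lay 13 members and below it 24, or 64.9% below against 39.3% of all genes. The 3 arrays of each group limit the precision: the median standard error of the members was 0.41 on the log2 scale, against 0.30 for all genes, and the 95% intervals of several members reached past a 2-fold change either way.

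**Figure D2:**
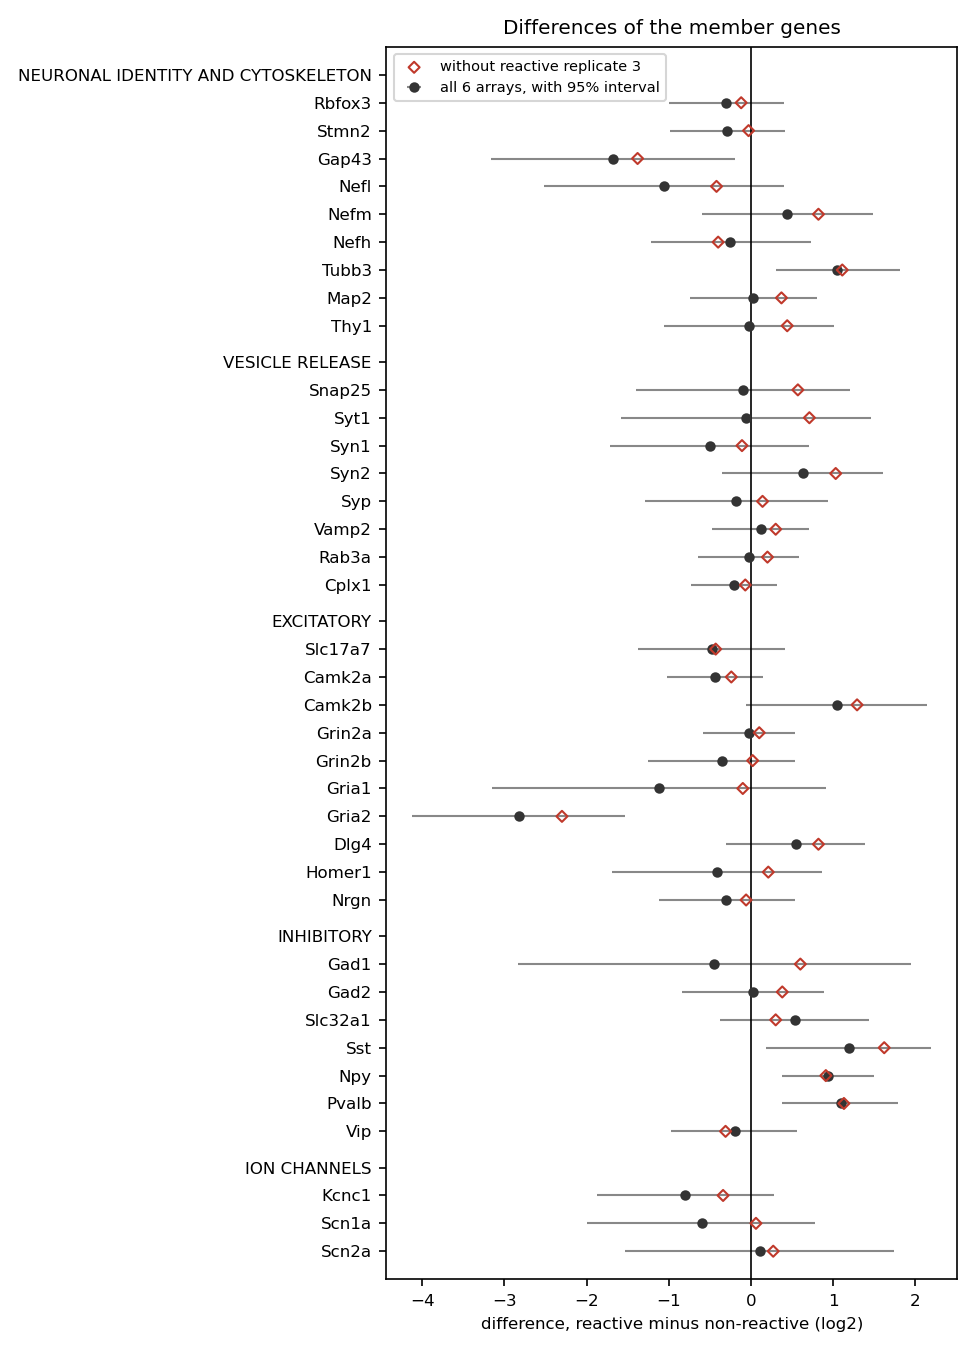
Log2 difference of each measured member, reactive minus non-reactive, with filled circles and bars for the limma estimate and its 95% interval on all 6 arrays and open diamonds for the estimate without reactive replicate 3. Most intervals cross 0, and Gria2 lies furthest from 0, at -2.82. Without reactive replicate 3, 23 of 37 members lie above 0, as do 10860 of all 18193 genes.

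A single reactive array carried much of the spread. Reactive replicate 3 was the lowest of the 3 reactive arrays for 28 of 37 members, or 75.7%, while over all genes it was the lowest for 34.8%. It was also the lowest of all 6 arrays for 22 members, or 59.5%, against 18.0% of all genes. Reactive replicate 2 was the highest reactive array for 21 members, or 56.8%, against 30.8% of all genes. The median SD of the members was 0.64 over the reactive and 0.35 over the non-reactive arrays, and over all genes these were 0.40 and 0.28. Expressed as the mean deviation of the 37 members from their own 6-array means, the reactive arrays lay at 0.07, 0.44 and -0.72 and the non-reactive arrays at 0.28, -0.02 and -0.06. With reactive replicate 3 left out, the median log2 difference was 0.20 over the members and 0.11 over all genes. In that fit 23 members lay above 0, and 37.8% of members lay below it, near the 40.3% of all genes. The sign of the members' median thus rested on this array, and no member passed in that fit either (limma).

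The same array stood apart in markers of other cells. The 10 markers of endothelial cells and pericytes deviated by -0.45, -0.31 and 1.07 from their own means on the reactive arrays and by -0.44, 0.06 and 0.08 on the non-reactive arrays. Cldn5, a tight junction gene of brain endothelium, measured 5.45, 5.53 and 9.36 on the reactive and 4.51, 5.61 and 5.22 on the non-reactive arrays. Mki67, which marks dividing cells, measured 5.82, 5.48 and 8.02 on the reactive and 4.45, 4.23 and 5.11 on the non-reactive arrays. On reactive replicate 3, most members were low where Cldn5 and Mki67 were high. Pdgfrb and Rgs5, of the endothelial and pericyte list, lay below all non-reactive arrays on every reactive array. Among the reactive arrays, replicate 3 was the highest for Rgs5 (6.13, 5.80 and 6.69) but not for Pdgfrb (4.59, 7.68 and 6.84). Only 3 of the 10 genes of that list lay above 4.74 on all 6 arrays. The 7 neural progenitor markers, which include Mki67, deviated by 0.87 on this array, but Sox4 among them was at its lowest reactive value (7.88). The part of endothelial cells, pericytes or dividing cells in the low neuronal values was not tested.

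**Figure D3:**
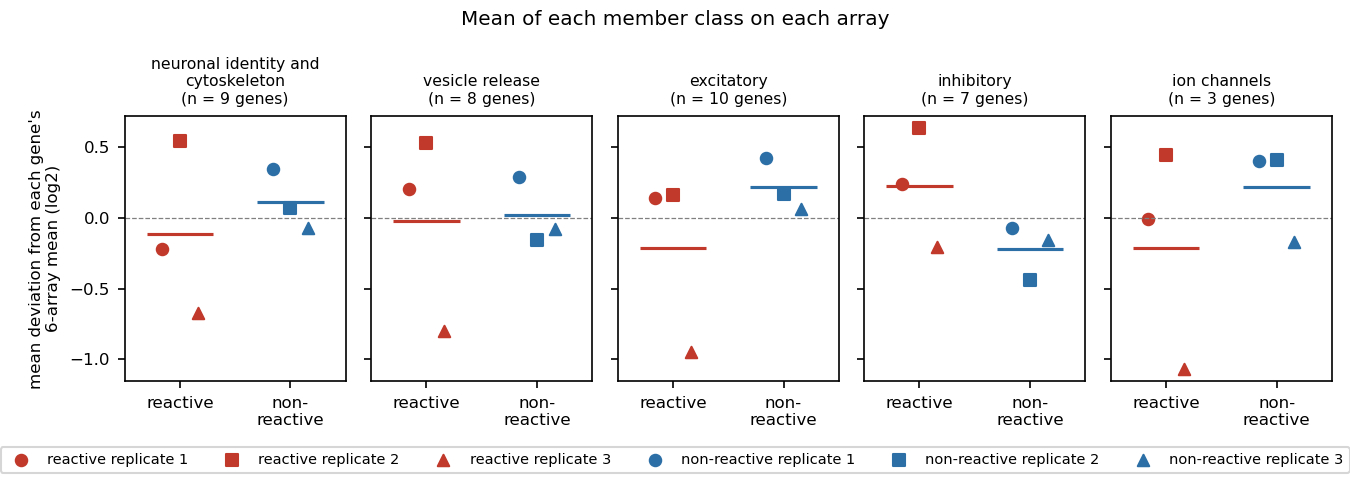
Mean deviation of each class of members from its genes' own 6-array means (log2, vertical axis) on the 3 reactive arrays, at left in each panel, and the 3 non-reactive arrays, with a line at the group mean. Reactive replicate 3, the red triangle, is the lowest point in all panels except that of inhibitory genes, where it lies at -0.21 and non-reactive replicate 2 at -0.44.

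The 9 genes of neuronal identity and cytoskeleton had a median difference of -0.25, with 3 above 0 and 6 below. The median was -0.03 without reactive replicate 3, and leaving out non-reactive replicate 1 gave 0.00. Gap43, a growth cone protein of axons, measured 7.19, 9.62 and 7.51 on the reactive arrays, against 9.93, 9.67 and 9.76 on the non-reactive arrays. Reactive replicates 1 and 3 lay far below all non-reactive arrays, while replicate 2 reached to just under them. The log2 difference was -1.68 (95% interval -3.16 to -0.20, limma adjusted p = 0.324). Without reactive replicate 2 it was -2.44 and passed (limma adjusted p = 0.0378), so the call for Gap43 depended on that array. Tubb3, the neuronal beta-tubulin isotype, moved the other way, at 7.49, 8.64 and 7.88 on the reactive and 6.95, 6.99 and 6.91 on the non-reactive arrays. All 3 reactive arrays of Tubb3 were above the non-reactive ones, which lay within a narrow band, and the difference of 1.05 (SE 0.32) did not pass (limma adjusted p = 0.232). It is the neuronal tubulin, but dividing and migrating neural cells also transcribe it.

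The neurofilament subunits gave no common direction. Nefl, the light subunit, measured 9.86, 11.24 and 8.63 on the reactive and 11.04, 11.09 and 10.77 on the non-reactive arrays, a difference of -1.06 (SE 0.61). The reactive arrays of Nefl spread over more than the distance between the groups. Its other probe set differed by 0.21. Nefm, the medium subunit, differed by 0.44 (SE 0.43) and Nefh, the heavy subunit, by -0.25 (SE 0.41). Among the remaining genes of this class, Rbfox3 differed by -0.30 (95% interval -1.0 to 0.40) and Stmn2, a microtubule regulator of axons, by -0.29 (95% interval -0.99 to 0.41). Map2, the dendritic microtubule protein, differed by 0.03 (95% interval -0.74 to 0.80) and Thy1, a surface glycoprotein of projection neurons, by -0.02 (95% interval -1.06 to 1.01). For these 4 genes the arrays of the groups overlapped at the probe set used, and the intervals reach to about a 2-fold change. The other probe sets of Map2 differed by -0.80 (SE 0.77), -0.85 (SE 0.80) and -0.26 (SE 0.43).

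The 8 vesicle release genes had differences between -0.50 and 0.63, with a median of -0.08. Snap25, a SNARE of the plasma membrane, measured 10.41, 10.59 and 8.50 on the reactive and 9.96, 9.89 and 9.95 on the non-reactive arrays. Syt1, the calcium sensor of fast release, measured 10.26, 10.20 and 7.93 on the reactive and 9.91, 9.42 and 9.24 on the non-reactive arrays. For both genes, reactive replicates 1 and 2 were above all non-reactive arrays and replicate 3 was below all of them. Their differences were therefore near 0 with wide intervals, -0.10 (95% interval -1.40 to 1.21) for Snap25 and -0.06 (-1.58 to 1.46) for Syt1. Without reactive replicate 3 they were 0.57 and 0.71 (limma adjusted p = 0.329 and 0.348).

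Reactive replicate 3 was the lowest reactive array for all 8 of these genes, and the lowest of all 6 arrays for 7. Synapsin genes, whose proteins tether vesicles, split, with Syn1 at -0.50 (SE 0.50) and Syn2 at 0.63 (SE 0.41). Syp, which encodes the vesicle membrane protein synaptophysin, differed by -0.18 (SE 0.47) and Rab3a, a vesicle GTPase, by -0.03 (SE 0.26). Vamp2, the vesicle SNARE, differed by 0.12 (95% interval -0.47 to 0.71), and Cplx1, a complexin that clamps release, by -0.21 (95% interval -0.73 to 0.31). The groups overlapped for all 8. Without reactive replicate 3 the median of the class was 0.25, with 6 genes above 0 and 2 below.

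The 10 measured excitatory genes had a median difference of -0.38, with 2 above 0 and 8 below (80.0%, against 39.3% of all genes). Of them 1, Gria2, had an unadjusted p under 0.05 at its chosen probe set. Gria2 encodes the AMPA receptor subunit that sets calcium permeability. At the probe set 1421970_a_at it measured 6.16, 6.85 and 4.94 on the reactive arrays, against 8.92, 9.37 and 8.14 on the non-reactive arrays. Every reactive array lay more than 1 log2 unit below the lowest non-reactive array, and the difference was -2.82 (95% interval -4.12 to -1.53), a 7.08-fold lower level, with a limma adjusted p of 0.0856. At the probe set 1453098_at, Gria2 fell to 6.54, 6.24 and 6.04 on the reactive arrays, against 8.44, 8.37 and 8.06 on the non-reactive arrays. This difference of -2.02 (95% interval -2.56 to -1.48) passed (limma adjusted p = 0.0263) and was the only 1 of the 89 member probe sets to do so, where 0.85% of all probe sets passed.

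The Gria2 call was not stable to the loss of an array. Without any 1 of the 6 arrays the second probe set differed by -2.15 to -1.90 with limma adjusted p-values of 0.0519 to 0.108. With all 6 arrays it passed in the main fit, after other scalings, with other variance models and with array weights. It also passed without probe sets of suffix _x_at, _s_at or _a_at. Its values under the filter on dim probe sets and under the replicate block were not kept. The remaining Gria2 probe set, 1434146_at, measured 7.13, 6.80 and 5.02 on the reactive and 6.87, 7.88 and 6.76 on the non-reactive arrays, which overlapped, and differed by -0.85 (SE 0.60). The probe sets of Gria2 thus shared a direction but not a size. Gria1, a further AMPA receptor subunit, measured 8.72, 8.66 and 5.63 on the reactive and 8.91, 8.16 and 9.30 on the non-reactive arrays. Its difference of -1.12 (SE 0.85) rested on reactive replicate 3, without which it was -0.10.

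Camk2a, whose arrays are given above, had non-overlapping groups and a small difference of -0.44 (95% interval -1.02 to 0.14, limma adjusted p = 0.486). Camk2b, the beta subunit of the same kinase, measured 7.51, 7.68 and 6.83 on the reactive and 6.94, 5.35 and 6.61 on the non-reactive arrays. The difference of 1.04 (SE 0.46) was opposite in sign to that of Camk2a, with overlapping groups. Of the postsynaptic scaffold genes, Dlg4, which encodes PSD-95, differed by 0.55 (SE 0.35) and Homer1, which links receptors to calcium stores, by -0.42 (SE 0.53). The sign for Homer1 rested on reactive replicate 3, without which it differed by 0.21 and Dlg4 by 0.82, and on the probe set, since the next brightest of Homer1 gave 0.52 (SE 0.46). Nrgn, a calmodulin-binding protein of dendritic spines, differed by -0.30 (95% interval -1.12 to 0.53). Grin2b, an NMDA receptor subunit, measured 8.48, 7.76 and 7.01 on the reactive and 8.24, 8.06 and 8.01 on the non-reactive arrays, a difference of -0.35 (SE 0.38).

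Slc17a7 and Grin2a are near the mark for dim probe sets, so their differences carry little. Slc17a7 measured 4.37, 4.90 and 4.47 on the reactive and 5.31, 5.59 and 4.29 on the non-reactive arrays, a difference of -0.48 (SE 0.37). Grin2a measured 3.54 to 4.02 on the reactive and 3.52 to 3.97 on the non-reactive arrays. Reactive replicate 3 was the lowest reactive array for 9 of the 10 excitatory genes. Without it the median of the class was -0.02, with 5 genes above 0 and 5 below.

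None of the 7 inhibitory genes passed. Their median difference was 0.53, with 5 above 0 and 2 below (28.6%, against 39.3% of all genes). For 3 of them, Sst, Npy and Pvalb, all reactive arrays lay above all non-reactive arrays, which was so for 13.5% of all genes. These genes, together with Tubb3 and Gria2, are the members with non-overlapping groups for which RefSeq promoter windows were at hand. A window runs from 250 bases before to 50 bases after an annotated transcription start, on the coding strand, in build GRCm38.p6. Promoter windows were found for 26 of the 38 members, 34 windows in all. They were searched on both strands for TGACGTCA, the cyclic AMP response element, for a core of the RE1 element, which is bound by the repressor REST, and for TTCAGCACC, the first part of that core, which overlaps it. Capitals mark these matches.

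Sst encodes the peptide somatostatin, and its window at chr16:23890795-23891094 on the minus strand holds TGACGTCA starting 48 bases before the start. Npy encodes neuropeptide Y, with a window at chr6:49822460-49822759 on the plus strand. Pvalb encodes the calcium buffer parvalbumin of fast-spiking cells and has windows at chr15:78206351-78206650 and chr15:78204188-78204487, both on the minus strand, shown in this order.
Sst: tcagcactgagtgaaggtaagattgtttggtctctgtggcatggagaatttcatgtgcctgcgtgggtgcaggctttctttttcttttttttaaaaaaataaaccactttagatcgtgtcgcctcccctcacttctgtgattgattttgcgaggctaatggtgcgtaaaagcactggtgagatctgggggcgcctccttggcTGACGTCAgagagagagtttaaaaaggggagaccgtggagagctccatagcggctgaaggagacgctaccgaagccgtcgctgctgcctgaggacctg
Npy: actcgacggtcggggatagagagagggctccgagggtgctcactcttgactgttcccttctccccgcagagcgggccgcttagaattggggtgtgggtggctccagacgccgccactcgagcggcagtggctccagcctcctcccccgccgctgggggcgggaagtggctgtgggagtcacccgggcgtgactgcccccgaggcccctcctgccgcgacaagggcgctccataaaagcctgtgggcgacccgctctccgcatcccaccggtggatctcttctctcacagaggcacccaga
Pvalb: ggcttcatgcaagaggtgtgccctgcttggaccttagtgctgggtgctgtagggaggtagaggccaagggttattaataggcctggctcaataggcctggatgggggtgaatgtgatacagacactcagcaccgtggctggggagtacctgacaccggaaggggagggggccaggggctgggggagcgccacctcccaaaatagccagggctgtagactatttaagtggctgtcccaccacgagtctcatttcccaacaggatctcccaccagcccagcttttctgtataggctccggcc
Pvalb: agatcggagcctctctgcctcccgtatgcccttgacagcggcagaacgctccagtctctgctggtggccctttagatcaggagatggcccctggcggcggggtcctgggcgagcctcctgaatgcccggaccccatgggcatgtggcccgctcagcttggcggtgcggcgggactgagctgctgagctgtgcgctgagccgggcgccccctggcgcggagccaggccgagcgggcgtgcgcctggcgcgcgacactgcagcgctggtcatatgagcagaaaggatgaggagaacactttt

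The window of Tubb3 lies at chr8:123411303-123411602 on the plus strand and that of Gria2 at chr3:80802786-80803085 on the minus strand. That of Syn1, at chrX:20920869-20921168 on the minus strand, is shown because it is the only member window with 2 of the motifs, TTCAGCACC starting 232 and TGACGTCA starting 159 bases before the start.
Tubb3: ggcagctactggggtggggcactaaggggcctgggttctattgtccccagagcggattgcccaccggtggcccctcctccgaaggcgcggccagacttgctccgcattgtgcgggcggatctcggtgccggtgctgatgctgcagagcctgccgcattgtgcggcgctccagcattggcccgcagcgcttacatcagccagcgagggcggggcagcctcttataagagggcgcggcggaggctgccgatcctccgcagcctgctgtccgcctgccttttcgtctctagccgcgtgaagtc
Gria2: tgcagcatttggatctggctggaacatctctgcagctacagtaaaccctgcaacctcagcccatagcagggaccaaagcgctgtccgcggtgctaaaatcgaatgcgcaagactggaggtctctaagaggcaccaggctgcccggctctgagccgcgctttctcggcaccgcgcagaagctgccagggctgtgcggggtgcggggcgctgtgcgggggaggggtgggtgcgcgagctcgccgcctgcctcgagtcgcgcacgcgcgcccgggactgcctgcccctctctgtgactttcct
Syn1: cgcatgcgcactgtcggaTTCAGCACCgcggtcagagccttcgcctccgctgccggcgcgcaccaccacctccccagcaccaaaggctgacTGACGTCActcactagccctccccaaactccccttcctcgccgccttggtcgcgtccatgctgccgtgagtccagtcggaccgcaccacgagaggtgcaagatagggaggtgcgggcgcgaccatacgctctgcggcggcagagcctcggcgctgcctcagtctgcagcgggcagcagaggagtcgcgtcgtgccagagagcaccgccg

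Over all member windows, TGACGTCA was found in 2 of 34, those of Sst and Syn1, or 5.88%, against 1.79% of all 32851 windows. TTCAGCACC was found in 1 of 34, that of Syn1, or 2.94%, against 0.371% of all windows. The longer RE1 core was in none of the member windows and in 0.0122% of all windows. The windows of Npy, Pvalb, Tubb3 and Gria2 hold none of the 3. The members with both non-overlapping groups and a window thus share none of these letters. Camk2a and Gap43, whose groups also did not overlap, had no window to search.

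Sst measured 8.32, 8.99 and 7.36 on the reactive arrays, against 7.29, 6.83 and 7.00 on the non-reactive arrays. Reactive replicate 3 lay just above the highest non-reactive array, and the others were clearly above it. The difference was 1.19 (95% interval 0.18 to 2.19), 2.27-fold, with a limma adjusted p of 0.305. Npy measured 9.06, 9.10 and 9.16 on the reactive and 8.37, 7.77 and 8.36 on the non-reactive arrays. The 3 reactive arrays of Npy were nearly equal, and the difference of 0.94 (95% interval 0.38 to 1.49), 1.92-fold, had a limma adjusted p of 0.155. Pvalb measured 9.92, 9.61 and 9.62 on the reactive and 9.07, 8.08 and 8.75 on the non-reactive arrays. Again every reactive array was higher, and the difference of 1.09 (95% interval 0.38 to 1.79), 2.12-fold, had a limma adjusted p of 0.190. Each of these genes was read by a single probe set. In the 16 alternative settings Sst ranged from 0.80 to 1.62, Npy from 0.74 to 1.04 and Pvalb from 0.81 to 1.3, and none passed in any. Variance models, the filter, the replicate block and other choices of probe set cannot move these estimates. The ranges thus came from the scalings, array weights and arrays left out.

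The enzymes and the transporter that make and load GABA did not share that separation. Gad1, the main GABA-synthesising enzyme of the soma, measured 6.33, 8.06 and 4.05 on the reactive and 6.95, 7.29 and 5.57 on the non-reactive arrays. The reactive arrays of Gad1 spanned the whole non-reactive range and beyond, and the difference was -0.45 (95% interval -2.84 to 1.94). Gad2, the enzyme form of axon terminals, measured 6.66, 7.06 and 5.81 on the reactive and 6.32, 6.28 and 6.86 on the non-reactive arrays, a difference of 0.03 (SE 0.36). Slc32a1, the vesicular GABA transporter, measured 8.36, 7.92 and 8.83 on the reactive and 8.22, 7.14 and 8.15 on the non-reactive arrays. It was highest on reactive replicate 3, where Gad1 and Gad2 were lowest, and differed by 0.53 (SE 0.38). Vip, which encodes vasoactive intestinal peptide, measured 4.97, 5.61 and 5.62 on the reactive and 5.21, 5.47 and 6.13 on the non-reactive arrays, a difference of -0.20 (SE 0.32).

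Set side by side, the mean deviations of the excitatory genes were 0.14, 0.16 and -0.95 on the reactive and 0.42, 0.17 and 0.06 on the non-reactive arrays. Those of the inhibitory genes were 0.24, 0.63 and -0.21 on the reactive and -0.07, -0.44 and -0.16 on the non-reactive arrays. Reactive replicate 3 was the lowest reactive array for 3 of 7 inhibitory genes and the highest for 3. The excitatory median of -0.38 and the inhibitory median of 0.53 thus had opposite signs, and without reactive replicate 3 they were -0.02 and 0.60. Without non-reactive replicate 2, the lowest array for 4 of the 7 inhibitory genes, the inhibitory median was 0.18. The difference between the classes was not tested.

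Among the 3 channel genes, Kcnc1, a potassium channel subunit of fast-spiking neurons, measured 8.49, 7.70 and 6.72 on the reactive and 8.71, 8.43 and 8.16 on the non-reactive arrays, a difference of -0.80 (SE 0.45). Scn1a, a sodium channel prominent in inhibitory neurons, measured 7.37, 7.14 and 5.26 on the reactive and 6.75, 7.62 and 7.22 on the non-reactive arrays, a difference of -0.60 (SE 0.58). Scn2a, a sodium channel of excitatory axons, measured 6.70, 9.08 and 7.40 on the reactive and 8.36, 7.79 and 6.71 on the non-reactive arrays, a difference of 0.11 (SE 0.69). The groups overlapped for all 3. Without reactive replicate 3, Kcnc1 differed by -0.34, Scn1a by 0.06 and Scn2a by 0.27, and the median of the 3 genes was 0.06, against -0.60 with all 6 arrays.

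The size of a difference depended on the probe set. The members were read by 89 probe sets with 1 symbol, of which 14 members had 1 and 23 had several, up to 6. For 15 of these 23 the probe sets had differences of both signs. At the Syt1 probe set 1431191_a_at the values were 6.27, 5.79 and 5.18 on the reactive and 8.29, 8.73 and 7.36 on the non-reactive arrays, a difference of -2.38 (SE 0.43, limma adjusted p = 0.0747), whereas the chosen probe set gave -0.06. At the Syn2 probe set 1449030_at the values were 3.53, 7.06 and 5.23 on the reactive and 7.35, 7.46 and 7.58 on the non-reactive arrays, a difference of -2.19 (SE 0.81), whereas the chosen probe set gave 0.63. In both of these the groups did not overlap, with the reactive arrays lower. These 2 probe sets were singled out after their values were seen. The place of each probe set along its transcript was not used here, and the 3′ minus 5′ control differences given above also differed between the groups.

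**Figure D4:**
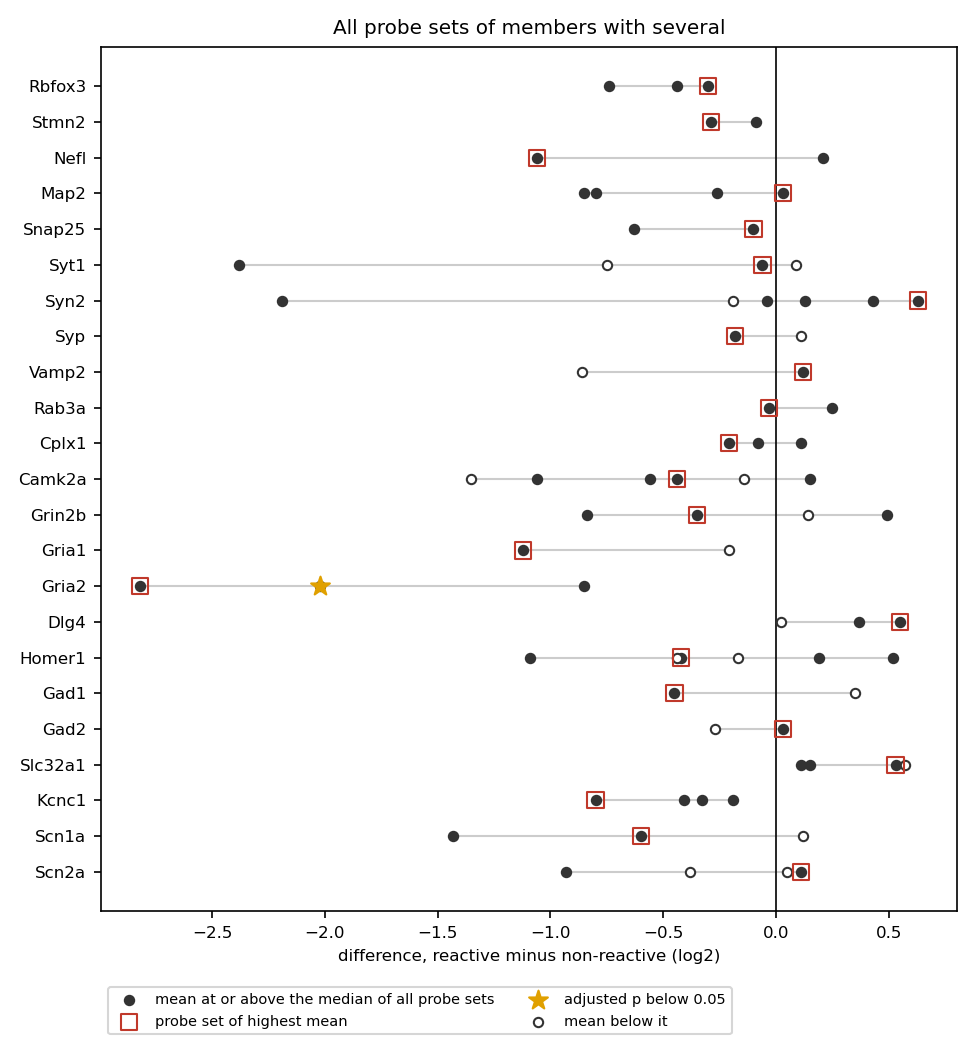
Log2 difference, reactive minus non-reactive, of every probe set of the 23 members read by several, with a square around the probe set of highest mean, open circles for means below 4.74 and a star for the probe set that passed. The probe sets of Syt1, Syn2 and Gria2 spread most, and 15 of the 23 genes have points on both sides of 0.

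A wider list of 97 other neuronal genes of the same roles, chosen with earlier results of these arrays known, was read for comparison, and 82 were measured. Of these, none rose and 1, Rorb, fell (limma), with 4 higher and 10 lower at an unadjusted p under 0.05, which is 17.1% of them against 15.0% of all genes. Their groups did not overlap for 15 genes, 4 higher and 11 lower, or 18.3%. Over all genes this was so for 13.5% with higher and 8.2% with lower reactive arrays, 21.7% together. Their median difference was -0.05. Pooled over directions, both shares lay near those of all genes, but lower genes outnumbered higher ones, unlike over all genes. By sign alone, 37 of the 82 lay above 0 and 45 below with all 6 arrays. Without reactive replicate 3 their median was 0.15, with 53 above 0 and 29 below. That is 35.4% below 0, against 40.3% of all genes. Rorb encodes a nuclear receptor that marks layer 4 excitatory neurons and is also transcribed by astrocytes. It measured 5.67, 6.28 and 7.29 on the reactive arrays, against 10.03, 10.00 and 9.64 on the non-reactive arrays, a difference of -3.47 (SE 0.42, limma adjusted p = 0.0299). Reactive replicate 3 was the highest reactive array for Rorb, unlike for most members. With the mean of its 3 probe sets Rorb differed by -1.63, and its call was lost with the replicate block and without any array other than reactive replicate 3, with limma adjusted p-values of 0.0575 to 0.118.

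The other genes of this list that were read brightest in their roles did not pass. Cck, a peptide gene of interneurons that excitatory cells also transcribe, measured 11.10, 11.20 and 10.53 on the reactive and 9.79, 8.97 and 9.20 on the non-reactive arrays. Its difference of 1.62 (95% interval 0.90 to 2.35) had a limma adjusted p of 0.0811. The 17 measured genes of this wider inhibitory list went both ways, with 9 above 0, 8 below and a median of 0.06. The groups did not overlap for 4 of them, and none passed. Cck and Crh (3.04) were higher on the reactive arrays and Sox6 (-0.81) and Lhx6 (-0.42) lower. Lhx6 lay above 4.74 on only 1 array. The non-reactive values of Crh spread widely, at 5.54, 2.95 and 7.14 (SE of the difference 1.03). Crh, Sox6 and Lhx6 were named after their values were known. Stmn3, a relative of Stmn2, differed by 0.04 (SE 0.36), the plasma membrane SNARE gene Stx1a by -0.41 (SE 0.38) and the sodium channel subunit Scn2b by -0.02 (SE 0.29). Ppp3ca, a catalytic subunit of calcineurin, differed by -1.13 (SE 0.31) with non-overlapping groups. Cplx2, singled out once its values were known, differed by -2.81 (SE 0.72), while its relative Cplx1 differed by -0.21; the probe sets of Cplx2 ranged from -2.81 to 0.54. Over the 82 genes, reactive replicate 3 was the lowest reactive array for 62, or 75.6%, nearly the share seen in the members.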

How the data were processed

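RNA from sorted, pooled cells was amplified in 2 rounds and biotin-labelled, per the labels' protocols. The deposited log2 values were made by the authors with RMA, per the submitters' processing notes; its version is not given in sources used here. Of 45101 probe sets, 64 controls were left out, and 34945 of the other 45037 had exactly 1 symbol. Array medians lay between 4.65 and 4.73. The comparison, reactive minus non-reactive, was fitted on all 45037 probe sets with limma 3.58.1 (lmFit, then eBayes; R 4.3.3), two-sided, without covariates, with Benjamini-Hochberg adjustment and a threshold of 0.05. Errors beside log2 differences are moderated standard errors. The fit was tested on simulated data. No test was made over a list. All measured members are described. Of each wider list, the genes past the threshold and the brightest other gene were named. Crh, Sox6, Lhx6 and Cplx2 were named besides, after their values were known. Members, lists and alternatives were chosen with earlier results of these data known. The labels call the pools biological replicates. The alternatives were other scalings, variance models, array weights, a filter on dim probe sets, other choices of probe set, a replicate block and each array left out. Gene symbols were checked against RefSeq for GRCm38.p6, which changed 0, and promoter windows are from RefSeq.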

Additional observations from a re-analysis of the deposited data

How the results depend on the processing

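In 16 alternative settings no member passed with higher reactive arrays (limma). With lower reactive arrays 1 member passed without probe sets of suffix _x_at, _s_at or _a_at (Gria2, then read at -2.02, limma adjusted p = 0.0256, which also makes 1 excitatory member), and 0 to 1 passed when arrays were left out in turn (Gap43, without reactive replicate 2). Of the 37 members, 19 kept the sign of their difference in all settings. The other 18 changed it in at least 1 without passing in any, among them Gad1 (-1.41 to 0.60) and Syn2 (-0.20 to 1.03). Variance models, the filter on dim probe sets and the replicate block leave each estimate as it was, so they could not change a sign. The median log2 difference over the members was -0.37 to 0.20 when arrays were left out, positive only without reactive replicate 3, and -0.20 to -0.06 in the other settings. The inhibitory median was 0.18 to 0.76 when arrays were left out, and the vesicle median was 0.11 without the suffixes. Among the other neuronal genes, those that fell numbered 2 without the suffixes, 0 with the replicate block and 0 to 1 when arrays were left out. Over all genes, 173 passed, against 0 with the replicate block and 0 to 77 when arrays were left out; the cause was not tested. Same-numbered arrays were not paired: their deviations from the group means correlated at -0.07, -0.11 and 0.04, and the block changed no member's call. Leaving out an array also leaves fewer arrays for the test. The filter on dim probe sets kept 36 of 37 members, and values near 4.74 give no reliable size. With 3 arrays in each group, a p above the threshold does not show that a transcript was unchanged.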
